A study of Mus musculus with 9 samples.

Results

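Il4, Il5, Il13 and Il9 encode the secreted cytokines by which T helper 2 (Th2) cells and other type 2 immune cells drive allergic inflammation. Their RNA was followed in mouse CD4+ T cells on 9 Affymetrix Mouse Gene 1.0 ST arrays. The genes were taken by name, through the probe sets that name 1 of them and no other gene. Each of the 4 genes had 1 such probe set (Il4 10385832, Il5 10376054, Il13 10385837, Il9 10409586), and none shared a probe set with another gene. They make up 4 of the 19937 genes measured.

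The 3 groups held 3 arrays each. Naive cells were CD4+ CD44- T cells, sorted with a further surface marker, from the spleens of sham-treated mice at day 29. Acute Th2 cells were CD4+ CD69+ ST2+ T cells sorted from lung tissue at day 29 of allergic airway inflammation, after 3 consecutive days of 1% ovalbumin aerosol. Chronic Th2 cells were sorted from lung with the same markers at day 104, after 12 weeks of aerosol with 2 challenges per week. Mice of both Th2 groups had first been sensitised by 3 injections into the peritoneum of 10 µg ovalbumin on 1.5 mg aluminium hydroxide, at days 1, 14 and 21. CD4+ cells were enriched on magnetic beads before sorting, lungs were taken apart by a digestion of 30 min with DNaseI and collagenase D, and every group was stimulated with antibodies to CD3 and CD28 for 8 h after the sort. The levels therefore describe restimulated cells, with no unstimulated counterpart among the arrays. Strain, age and sex are not given in the labels, and the labels call the arrays biological replicates without saying whether each came from 1 mouse or a pool. Naive and Th2 cells differed in organ as well as in state, and the acute and chronic groups in day as well as in the number of challenges, so these cannot be told apart. The study's stated question was which mechanisms keep chronic allergic inflammation going. The question asked here is how far each cytokine gene stood above naive cells at both stages, and whether any differed between stages.

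As background, IL-4 drives naive CD4+ T cells towards the Th2 state and switches B cells to IgE. IL-13 shares a receptor chain with IL-4 and acts on airway epithelium and smooth muscle, where it drives mucus and airway hyperreactivity, and IL-5 supports the growth and survival of eosinophils. IL-9 acts on mast cells and epithelium, and is made by T cells of the Th2 and Th9 kind and by innate lymphoid cells. Il4, Il13 and Il5 lie together at the Th2 cytokine locus, where GATA3 and other factors open the chromatin and NFAT, which T cell receptor signals activate, drives transcription. Il9 lies elsewhere and depends on a partly different set of factors, among them PU.1, IRF4 and BATF.

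The 250 bases before each gene's start are shown because these are the stretches on which the factors measured further on are known to act. Sequences are from RefSeq on GRCm38.p6, read 5′ to 3′ along the gene's own strand and ending at the base before the start. All 4 genes matched the table. For Il4, which has 2 starts there, the outermost was used. Capitals mark the NFAT core GGAAA and the GATA word, which is GATA with A or T before it and A or G after it, on either strand.
Il4 (chr11:53618666-53618915, - strand): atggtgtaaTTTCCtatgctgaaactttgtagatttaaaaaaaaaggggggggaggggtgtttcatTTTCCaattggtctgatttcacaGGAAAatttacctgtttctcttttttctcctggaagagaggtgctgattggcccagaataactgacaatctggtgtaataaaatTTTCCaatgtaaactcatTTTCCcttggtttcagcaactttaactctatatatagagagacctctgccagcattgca
Il5 (chr11:53720544-53720793, + strand): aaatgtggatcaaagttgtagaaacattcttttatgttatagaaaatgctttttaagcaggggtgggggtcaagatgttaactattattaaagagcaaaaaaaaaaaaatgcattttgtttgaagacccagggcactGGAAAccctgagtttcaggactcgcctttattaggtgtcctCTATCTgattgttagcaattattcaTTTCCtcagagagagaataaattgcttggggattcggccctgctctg
Il13 (chr11:53634703-53634952, - strand): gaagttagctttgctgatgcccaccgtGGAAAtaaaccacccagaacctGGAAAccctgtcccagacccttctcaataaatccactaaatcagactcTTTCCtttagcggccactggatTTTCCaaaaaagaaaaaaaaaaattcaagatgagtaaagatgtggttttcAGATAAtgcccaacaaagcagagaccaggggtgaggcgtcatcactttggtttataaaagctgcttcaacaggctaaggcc
Il9 (chr13:56482258-56482507, - strand): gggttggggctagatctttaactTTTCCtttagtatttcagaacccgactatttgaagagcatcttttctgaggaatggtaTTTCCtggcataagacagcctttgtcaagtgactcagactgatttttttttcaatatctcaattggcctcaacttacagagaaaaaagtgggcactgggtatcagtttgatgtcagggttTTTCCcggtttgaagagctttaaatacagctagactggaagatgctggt

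The NFAT core stood 5 times before Il4, 4 times before Il13, 3 times before Il9 and 2 times before Il5. It is a short word, present in 55.6% of all 32851 such windows in the table. A GATA word stood once before Il5 (AGATAG on the opposite strand, bases -72 to -67) and once before Il13 (AGATAA, bases -81 to -76), and 26.5% of all windows hold one. Of the MAF half-site TGCTGA, searched on both strands and present in 16.1% of windows, 3 copies stood before Il4 and 1 before Il13. The AP-1 word TGANTCA, present in 6.75% of windows, stood only before Il9 among these genes, at bases -140 to -134. A STAT word (TTC and GAA with 3 or 4 bases between them, 12.4% of windows) stood once before Il4, at bases -167 to -158 where it overlaps an NFAT core, and once before Il9, at bases -184 to -175. A TATA word (TATAAA or TATATA, read along the gene) stood before Il4 and Il13, in 11.5% of windows overall. These are matches of letters, not measured binding, and a window without a match says nothing of the factor.

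Values are log2 intensities that the authors normalised across arrays, so a step of 1 is a doubling, and levels of different genes are not compared because probes differ in brightness. As a measure of background, the 95th percentile of 1015 olfactory receptor genes, odorant sensors with no known part in T cells, was taken on each array. It lay between 6.35 and 6.51 on the naive arrays, 6.32 and 6.68 on the acute arrays and 6.57 and 7.14 on the chronic arrays. All 10 measured T cell identity genes stood above it on every array, and of these Cd5 and Lat were called lower than in naive cells, Cd5 by -0.72 and -1.15 and Lat by -0.97 and -1.02 in acute and chronic cells. The acute calls of both and the chronic call of Lat held in at most 2 of the 9 fits that left out 1 array. With naive replicate 1 left out, 4 of the 10 (Cd4, Cd28, Cd2 and Cd247) were called higher in acute cells and 3 in chronic cells. That fit called more of all 19937 genes than the main fit in every comparison, by counts given in the last section. Over all genes, the main fit called 3.67% higher and 2.2% lower in acute cells, and 3.68% and 4.2% in chronic cells. Of the surface markers used for sorting, Cd44 was higher in acute (by 1.93) and chronic (by 1.89) Th2 cells than in naive cells, and Cd4 and Cd69 differed without passing the test (Cd4 by 0.35 and -0.19, Cd69 by -0.51 and -1.09). In the fit without naive replicate 1, Cd4 differed by 0.77 in acute cells. There Cd69 differed by -1.02 in acute and -1.61 in chronic cells, and all of these passed the test. Il1rl1 (ST2) is not analysed here. Naive replicate 1 stood apart in genes that T cells induce on stimulation. The median level of 18 such genes was 8.09 on it, against 10.94 and 11.09 on the other naive arrays and 9.93 to 10.77 on the 6 Th2 arrays. Of the 18, Ifng and Irf8 were called, both higher in Th2 cells. Without that array, in the fit with more calls over all genes, 5 were higher and 7 lower in acute cells. The lower genes were led by Tnf (-2.71) and Nr4a2 (-2.06). In chronic cells 5 were higher and 8 lower.

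Il4 read 5.90, 6.15 and 6.13 on the 3 naive arrays, 12.16, 11.30 and 11.43 on the acute arrays, and 11.97, 11.93 and 11.96 on the chronic arrays. Every naive array was below its background, and both Th2 groups were far above theirs. The acute arrays were spread by an SD of 0.46, with replicate 1 above the other acute arrays and above all chronic arrays, while the chronic arrays lay within an SD of 0.019.

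Il5 read 5.01, 5.15 and 5.31 on the naive arrays, 12.72, 12.59 and 12.64 on the acute arrays, and 12.43, 12.31 and 12.54 on the chronic arrays. It too was below background on every naive array. The acute and chronic arrays did not overlap.

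Il13 read 6.04, 6.37 and 6.57 on the naive arrays, 13.06, 13.02 and 13.09 on the acute arrays, and 12.78, 12.73 and 12.98 on the chronic arrays. It was just over background on 2 of the 3 naive arrays and below it on replicate 1. As for Il5, every chronic array was below every acute array.

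Il9 read 5.56, 5.57 and 5.55 on the naive arrays, 11.92, 12.02 and 11.79 on the acute arrays, and 12.21, 11.97 and 11.76 on the chronic arrays. All naive arrays were below background. The acute arrays lay within the range of the chronic ones, so the stages overlapped.

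**Figure D1:**
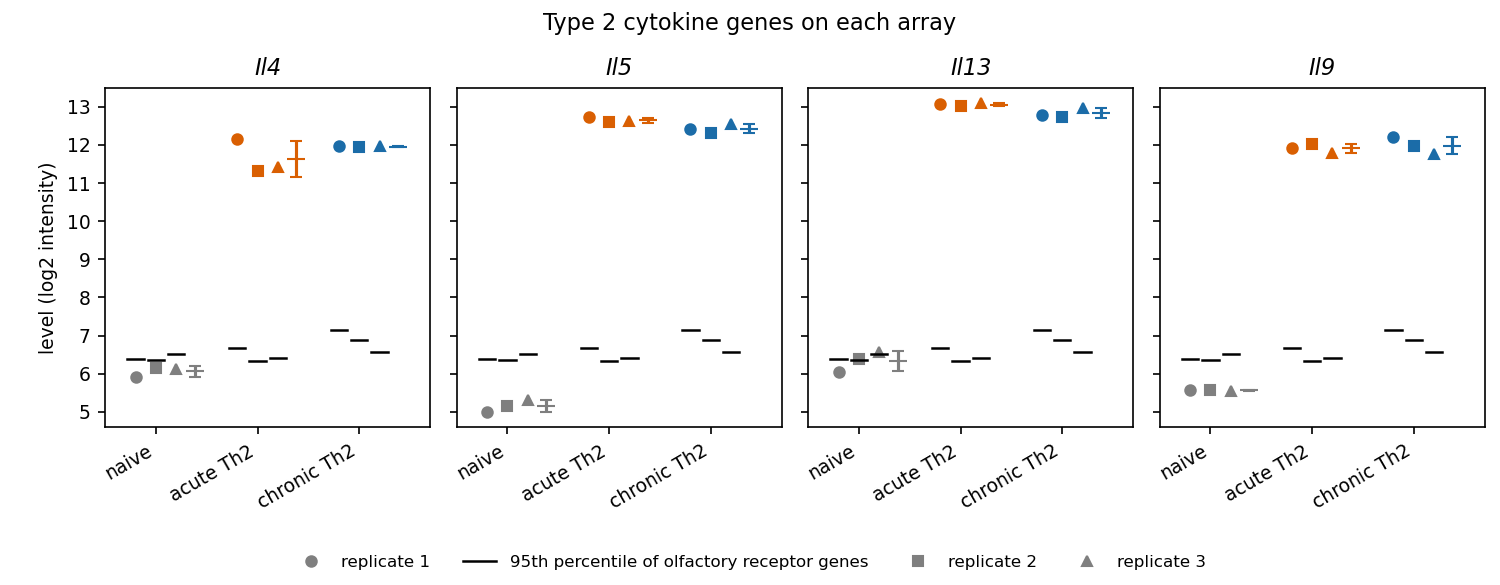
Log2 intensity of Il4, Il5, Il13 and Il9 on each of the 9 arrays, by group; marker shapes give the replicate number, the cross beside each group its mean with SD over 3 arrays, and short black lines the 95th percentile of olfactory receptor genes on each array. All Th2 arrays sit above 11, and the naive arrays sit at or below the background lines apart from Il13 on replicates 2 and 3.

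In acute Th2 cells all 4 genes were higher than in naive cells. Il5 stood 7.50 above naive cells on the log2 scale (SE 0.10, n = 3 arrays a group, limma adjusted p = 5.21e-09), Il13 6.73 (SE 0.14, 4.74e-08), Il9 6.35 (SE 0.12, 4.02e-08) and Il4 5.57 (SE 0.20, 1.08e-06). Because naive levels were below background, or in Il13 hardly above it, the fold changes are given as bounds with regard to background. They were reckoned on each naive array against the higher of its background line and the gene's own level. They rest on group means and leave out the spread between arrays. By the means, Il13 was at least 98.2-fold higher, Il5 at least 75.4-fold, Il9 at least 45.0-fold and Il4 at least 37.3-fold. The limma interval of the fold without the background line began lower for Il13 (86.0) and Il4 (34.6). It began higher for Il5 (154) and Il9 (67.4). Of all genes tested, 3.67% were called higher and 2.2% lower in this comparison at an adjusted p under 0.05, and 8.8% had every acute array above every naive array, as these genes did.

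In chronic Th2 cells the same genes stood as far above naive cells. The difference was 7.27 for Il5 (SE 0.10, limma adjusted p = 6.76e-09), 6.50 for Il13 (SE 0.14, 6.37e-08), 6.42 for Il9 (SE 0.12, 3.65e-08) and 5.89 for Il4 (SE 0.20, 6.51e-07). By the same bound on the means, Il13 was at least 83.8-fold higher, Il5 at least 64.5-fold, Il9 at least 47.4-fold and Il4 at least 46.6-fold. Here too the limma interval of the fold without the background line began lower for Il13 (73.4) and Il4 (43.2). It began higher for Il5 (131) and Il9 (70.9). Of all genes, 3.68% were called higher and 4.2% lower, and 15.6% had every chronic array above every naive array. Both comparisons share the naive arrays and are not separate evidence. The median difference over all genes was -0.030 in acute and 0.043 in chronic cells. Without naive replicate 1 the 4 genes stood 5.49 (Il4) to 7.42 (Il5) above naive cells in acute Th2, each still past the test. In these bulk samples, more cells carrying a transcript and more transcript per cell cannot be told apart.

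Between stages, none of the 4 genes passed the test in the limma fit, and 0 had an unadjusted p under 0.05 (the lowest was 0.057, for Il5). Chronic minus acute, Il4 differed by 0.32 (SE 0.20, limma adjusted p = 0.437) and Il9 by 0.072 (SE 0.12, 0.757), while Il5 differed by -0.22 (SE 0.10, 0.343) and Il13 by -0.23 (SE 0.14, 0.415). The 95% intervals bound these differences. For Il4 the chronic level was between 0.909 and 1.72 times the acute level, for Il5 between 0.728 and 1.01 times, for Il13 between 0.689 and 1.06 times and for Il9 between 0.871 and 1.27 times. None of these intervals reaches a change of 2 times in either direction, and changes smaller than their bounds could not be told from 0. Il13 read up to 13.09 on the acute arrays, and the highest gene level on any array was 13.79. Whether intensity still follows RNA evenly so near the top was not tested. Few genes passed at all between the stages, 0.015% being called higher and 0.015% lower, or 6 genes, although 2962 had an unadjusted p under 0.05. The chronic arrays of Il5 and Il13 lay below all acute arrays, which was so for 10.8% of all genes. The order of the groups was thus acute, chronic, naive for Il5 and Il13 and chronic, acute, naive for Il4 and Il9, with the first and second places not told apart by the test for any of them.

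**Figure D2:**
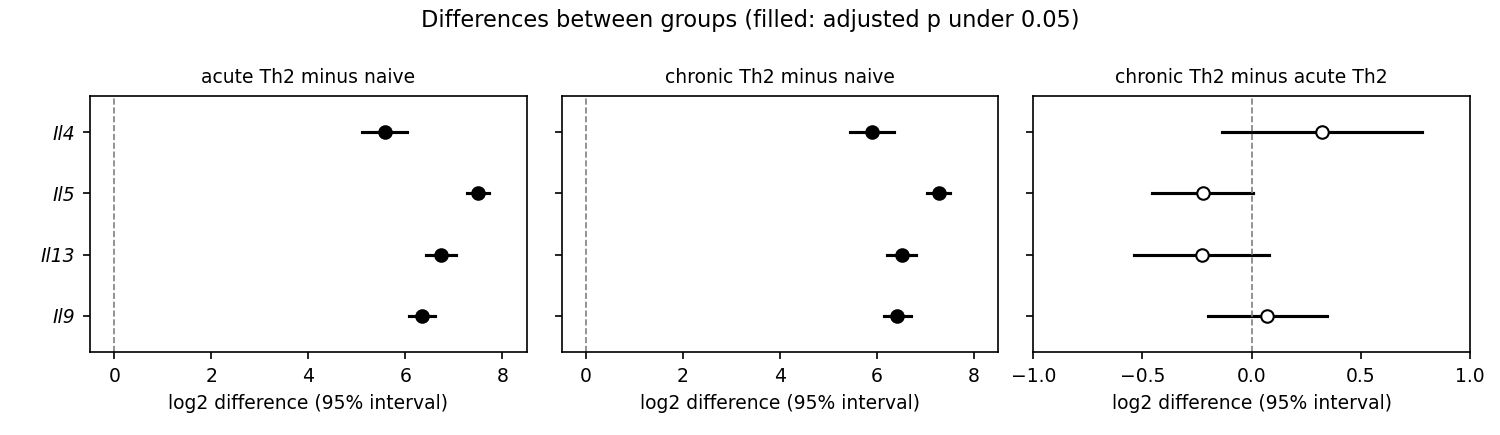
Log2 differences between groups for the 4 genes with 95% intervals from the limma fit, filled where the adjusted p is under 0.05; the right panel has a narrower axis. Differences from naive cells lie between 5.57 and 7.50, and those between the Th2 stages between -0.23 and 0.32 with intervals that include 0.

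The sign of the smaller stage differences depended on the arrays and on the scaling. Without chronic replicate 1, Il9 differed by -0.042. With each array centred on the olfactory receptor genes, whose levels were highest on chronic replicates 1 and 2, Il4 differed by -0.054 and Il9 by -0.30. With weights for array quality, Il4 (0.50, adjusted p = 0.0133), Il5 (-0.27, 0.018) and Il13 (-0.30, 0.0174) passed the test, in a fit that called 6721 genes.

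Differences between 2 of these genes on the same array do not change when a constant is added to all values of an array. All 6 pairs were compared between the stages; the difference itself also holds the brightness of the probes, and only its change between groups is read. Il4 minus Il5 was -0.56, -1.29 and -1.21 on the acute arrays and -0.46, -0.38 and -0.58 on the chronic arrays, a change of 0.55 (exact permutation p = 0.2, two-sided, 0.4 adjusted over the 6 pairs). Il4 minus Il13 also changed by 0.55 (exact permutation p = 0.2, adjusted 0.4). In both pairs acute replicates 2 and 3 lay below all chronic arrays, and acute replicate 1 lay within the chronic range. Il5 minus Il13, the pair that moved least, was -0.34, -0.43 and -0.46 on the acute arrays and -0.36, -0.42 and -0.44 on the chronic arrays. Its change was 0.0042 (exact permutation p = 1), and its sign turned without acute replicate 2 (-0.0074), acute replicate 3 (-0.020) or chronic replicate 1 (-0.021). Il5 minus Il9 changed by -0.30 (exact permutation p = 0.2), Il13 minus Il9 by -0.30 (0.3) and Il4 minus Il9 by 0.25 (0.5). With 3 arrays against 3 the smallest p possible is 0.1, so this test could not reach 0.05.

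Other cytokine genes of T cells behaved in more than one way across the same arrays. Of 20 measured, 8 were higher and 0 lower in acute than in naive cells (median difference 1.55), and 6 higher and 0 lower in chronic cells (0.92). In the fit without naive replicate 1, 2 were lower in each comparison. For this and the later lists, the shares over all genes in the main fit were 3.67% higher and 2.2% lower in acute cells. In chronic cells they were 3.68% and 4.2%. Il10, which encodes an anti-inflammatory cytokine also made by Th2 cells, rose by 7.03 in acute and 7.52 in chronic cells (limma adjusted p = 5.38e-07 and 3.48e-07). It was below background on all naive arrays, which by the means alone bounds it at 50.8-fold in acute and 71.2-fold in chronic cells at least. Il21 rose by 3.56 and 3.17 and Il24 by 2.76 and 2.03, and Ifng, the Th1 cytokine interferon gamma, by 1.98 and 1.79, all 3 from naive levels below background. Il3, a growth factor for mast cells and basophils, rose by 6.41 and 4.39, and Il17f, a cytokine of Th17 cells, by 4.39 and 3.16. Il3 was above background on 2 of the naive arrays and Il17f on 1. The chronic call of Il3 was lost (adjusted p up to 0.096) without naive replicate 3, any 1 acute array or chronic replicate 1. Of the 20, 0 were called by limma between the stages, and 5 had an unadjusted p under 0.05.

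The chronic arrays differed from one another in some of these genes far more than in Il4, Il5, Il13 and Il9. Il3 read 10.11, 8.91 and 12.47 on chronic replicates 1, 2 and 3 (SD 1.81), against 12.13, 12.86 and 12.56 on the acute arrays. Il2, the T cell growth factor, read 9.95, 8.95 and 11.70 (SD 1.39), against 10.94, 12.01 and 11.69. Il17f read 9.56, 8.70 and 10.54 (SD 0.92). In each of these genes chronic replicate 3 was highest and replicate 2 lowest. The SDs of the type 2 genes over the same arrays were 0.019 (Il4), 0.12 (Il5), 0.13 (Il13) and 0.23 (Il9), and Il9 was highest on replicate 1. Il10 (SD 0.12), Il21 (0.066) and Il24 (0.023) were as close together. Il2 and the contrast of spreads were chosen after the values were seen, and the difference in spread was not tested. On chronic replicates 1 and 2 the median of the 18 stimulation genes was 10.09 and 9.93, against 10.77 on replicate 3.

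**Figure D3:**
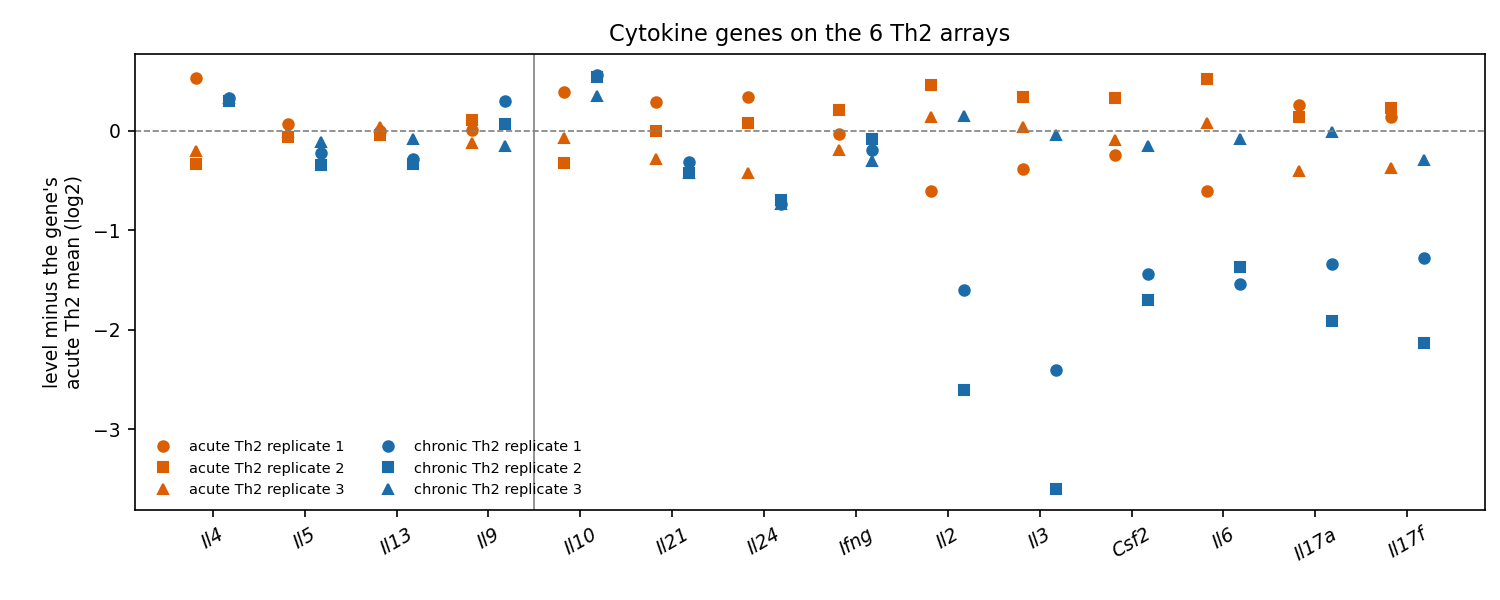
Level of each cytokine gene on the 6 Th2 arrays, as the log2 distance from that gene's mean over the acute arrays (dashed line); orange is acute, blue chronic, and shapes give the replicate number. Left of the grey line the 4 type 2 cytokine genes stay close to the line, while Il2 and Il3 on chronic replicates 1 and 2 fall far below it.

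Profiles over the 9 arrays were compared with those of all other genes, as the root mean square of the log2 differences after taking off each gene's mean. Predicted genes and receptor segments were left out, and the group steps shared by all these genes set most of the likeness. The profile closest to Il13 was that of Il9 (0.27), followed by Il5 (0.37) and Lilr4b (0.37), and the profile closest to Il5 was that of Il13 (0.37), then Il10 (0.43) and Il9 (0.52). For Il9 they were Il13 (0.27), Lilr4b (0.36), Il4 (0.41), Cxcr6 (0.50) and Mt2 (0.50). Il4 stood nearest to genes outside the group: Cxcr6, a chemokine receptor of tissue T cells (0.29), Penk, the enkephalin precursor (0.33), Lilr4b, an inhibitory receptor (0.37), Mt2, a metallothionein (0.37), and Tigit, an inhibitory receptor of T cells (0.41). Lilr4b and Il4 completed the 5 nearest of Il5, and Mt2 and Il4 those of Il13.

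On chromosome 11 the RefSeq order around the locus is Gdf9, Shroom1, Sowaha, Septin8, Kif3a, Il4, Il13, Rad50, Il5, Irf1, Slc22a5, Slc22a21, Slc22a4 and Pdlim4. Rad50, the DNA repair gene between Il13 and Il5 whose introns carry the locus control region of the Th2 cytokines, rose by 1.17 in acute cells (limma adjusted p = 0.000563) and by 0.86 in chronic cells (0.00336). It read 7.96, 7.86 and 7.78 on the naive arrays, 8.79, 9.10 and 9.23 on the acute arrays and 8.66, 8.70 and 8.82 on the chronic arrays, with no overlap between naive and Th2 arrays. Kif3a, next to Il4, rose by 0.92 in acute cells (adjusted p = 0.0178) and stood 0.65 higher in chronic cells without passing (0.0627). It was above background on 2 acute arrays and on no naive or chronic array. On the far side of Il5, Irf1 stood at -0.43 and -0.53 and passed in neither comparison. Next to Il9 on chromosome 13, Slc25a48 (0.081 and 0.14) and Fbxl21 (-0.021 and 0.049) passed in neither.

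A list of 22 measured neighbours of both loci, which also holds the more distant Il3 and Csf2, had 4 genes higher and 0 lower in acute cells (Il3, Rad50, Kif3a and Septin8, the last by 0.72) and 2 higher and 0 lower in chronic cells (Il3 and Rad50). The median difference over the list was 0.017 and 0.12. The acute count was 2 without acute replicate 2 or 3, as the calls of Kif3a and Septin8 were lost, and the chronic count was 1 without naive replicate 3, acute replicate 2 or 3 or chronic replicate 1. In acute cells 1 neighbour was called lower without naive replicate 1 or chronic replicate 3.

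Of the receptors for these cytokines, 7 genes were measured, and Il9r alone was called. Il9r, the specific chain of the IL-9 receptor, read 6.79, 6.69 and 7.05 on the naive arrays, 8.14, 8.15 and 8.49 on the acute arrays and 7.55, 7.62 and 7.68 on the chronic arrays. It rose by 1.41 in acute cells (SE 0.13, limma adjusted p = 0.000278) and by 0.77 in chronic cells (SE 0.13, 0.0084), a call kept in all 9 fits that left out 1 array. All chronic arrays lay below all acute arrays, at -0.64 (adjusted p = 0.301). Il4ra, the chain shared by the receptors of IL-4 and IL-13, was above background on all arrays and differed by -0.52 and -0.40 without passing. Il13ra1, Il13ra2 and Il5ra, the chains that bind IL-13 and IL-5, were below background on all 9 arrays. Csf2rb and Csf2rb2, the signalling chain of the IL-5 receptor and its close copy, whose probes may share targets, stood 0.49 and 0.30 higher in acute and 0.39 and 0.39 higher in chronic cells without passing. Csf2rb was above background on 1 acute array and on no other. Csf2rb2 was above it on 1 naive, 3 acute and 1 chronic array. Il2rg is not analysed here. Over the 7 genes the median difference was 0.11 in acute and 0.24 in chronic cells.

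Below the receptors, 3 of 14 measured signalling genes were higher and 1 lower in acute cells (median 0.73), and 5 higher and 1 lower in chronic cells (0.78). Socs2, a feedback inhibitor of cytokine signalling, rose by 3.23 and 3.52, Stat5a by 1.61 and 1.45, and Stat3 by 1.07 and 1.26. Socs2 was above background on 1 of the naive arrays. Ptpn6, the phosphatase SHP-1 that restrains IL-4 signalling, fell by 1.44 and 1.39 on the log2 scale (adjusted p = 1.47e-05 and 1.74e-05). Stat6, the main transducer of IL-4 and IL-13, stood at -0.43 and -0.58 and passed in neither comparison. With naive replicate 1 left out, 7 were higher and 2 lower in acute cells, Stat6 among the latter (-0.66, adjusted p = 0.0014), and 2 were lower in chronic cells, where Stat6 stood at -0.81 (0.000392). The chronic count of higher genes was 3 without naive replicate 2, any 1 acute array, or chronic replicate 2 or 3.

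Of 13 measured receptors for alarmins, lipids and other signals upstream of these genes, 4 were higher and 0 lower in acute cells (median 0.49), and 4 higher and 1 lower in chronic cells (0.41). Icos, a costimulatory receptor, rose by 3.69 and 4.0, Il2rb, a chain of the IL-2 receptor, by 2.21 and 2.17, and Il18rap, a chain of the IL-18 receptor, by 2.17 and 1.72. Il17rb, the IL-25 receptor, rose by 1.11 and 1.71, but its acute call held in 3 of 9 fits that left out 1 array. It was lost (adjusted p up to 0.106) without naive replicate 2 or 3, any 1 acute array or chronic replicate 1. Il17rb had the same value, 7.22, on all 3 acute arrays, and this SD of 0 enters the spread behind its calls. Why the values were the same was not tested. Il18rap and Il17rb were below background on all naive arrays. Above the mean naive background line, Il18rap stood by 1.57 and 1.11 and Il17rb by 0.81 and 1.41. When naive replicate 1 was left out, 7 of the 13 were higher in either comparison. The gene called lower, Il17ra (-0.75), was not called without acute replicate 2 or 3 or chronic replicate 1 or 2.

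Activators of the type 2 cytokine genes were mostly higher where they were called. Of 25 measured, 9 were higher and 1 lower in each comparison, with medians of 0.60 in acute and 0.70 in chronic cells. Maf, which acts on Il4, rose by 4.21 and 4.81 (limma adjusted p = 8.56e-06 and 3.85e-06). Gata3, the master regulator of Th2 cells, read 9.63, 8.44 and 8.25 on the naive arrays, 11.69, 11.83 and 12.02 on the acute arrays and 11.68, 11.68 and 11.90 on the chronic arrays. It rose by 3.07 and 2.98 (adjusted p = 0.000567 and 0.00068), with naive replicate 1 highest among the naive arrays. Pparg, a nuclear receptor of Th2 and fat cells, rose by 3.35 and 3.27, and Batf, an AP-1 family factor, by 2.54 and 2.30. The list holds more than factors that act on these genes directly. Its gene called lower, Ecm1, a secreted protein that lets Th2 cells leave lymph nodes, fell by 1.09 and 1.72.

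Irf4 differed by 1.65 and 1.69 without passing. Naive replicate 1 read 6.87 and the other naive arrays 11.73 and 11.71, and without replicate 1 the differences were 0.038 (adjusted p = 0.931) and 0.071 (0.699). Without naive replicate 1, 14 activators were called higher and 3 lower in acute cells, and 13 higher and 4 lower in chronic cells. In that fit more of all genes were called than in the main fit. The chronic count of lower genes was 2 without acute replicate 1 or chronic replicate 3. Of the 25, 0 were called by limma between the stages, and 4 had an unadjusted p under 0.05.

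**Figure D4:**
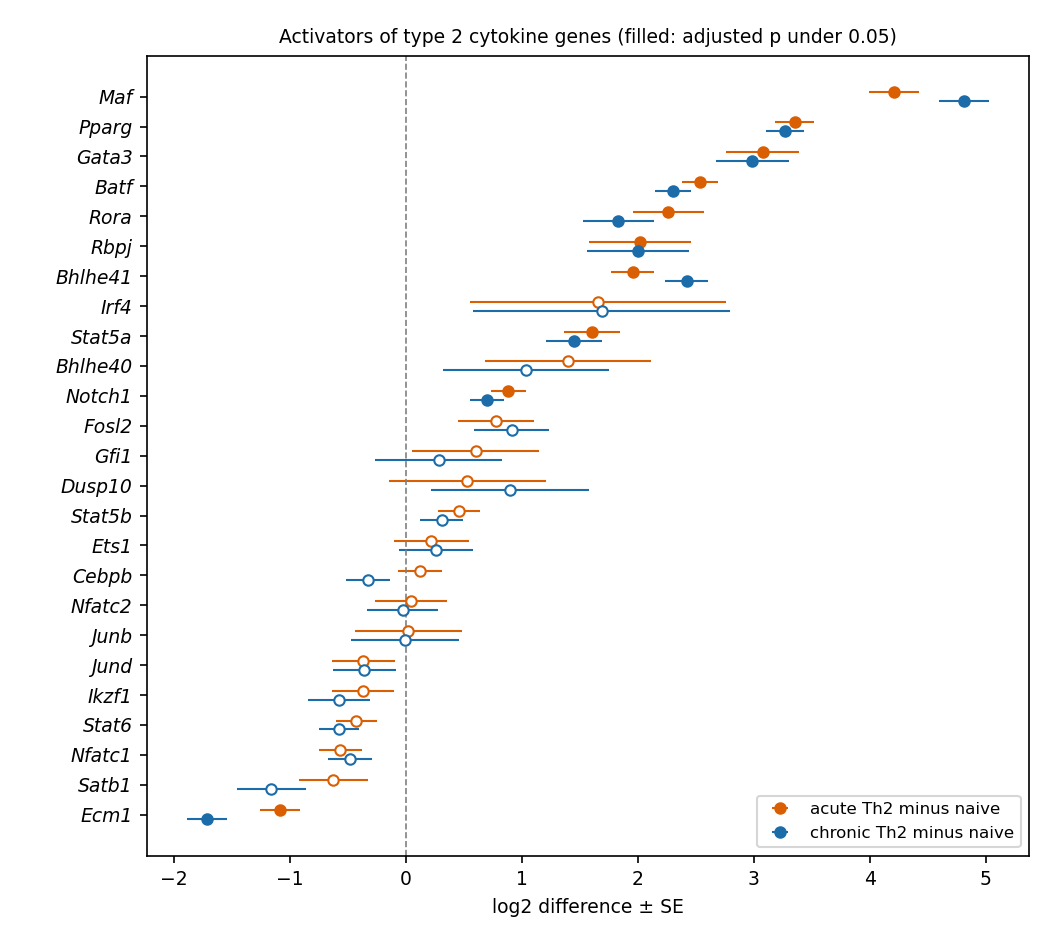
Log2 difference from naive cells of 25 activators of type 2 cytokine genes, with SE from the limma fit, for acute (orange) and chronic (blue) Th2 cells; filled points have an adjusted p under 0.05. Maf, Pparg and Gata3 lie farthest to the right in both comparisons, Ecm1 is the called gene on the left, and Irf4 has a wide error.

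Most repressors of these genes were not called in the main fit. Of 19 measured, 3 were higher and 1 lower in acute cells (median -0.073), and 4 higher and 1 lower in chronic cells (-0.13). The lower calls rest on 1 gene, Id3, beside 2.2% (acute) and 4.2% (chronic) of all genes called lower. Foxp3, the regulator of regulatory T cells, rose by 1.41 and 1.13, and Ezh2, which writes a silencing histone mark, by 1.47 and 1.21. Tbx21, which encodes the Th1 regulator T-bet, rose by 1.46 and 1.75, but its acute call was kept in 3 of 9 fits that left out 1 array. It was lost (adjusted p up to 0.141) without naive replicate 3, any 1 acute array, or chronic replicate 1 or 2, and its chronic call was lost without chronic replicate 1 or 2. Id3, an inhibitor of E proteins, fell by 0.98 and 0.90, to below background on all Th2 arrays. Without naive replicate 1, 6 were higher and 2 lower in acute cells, and 7 higher and 3 lower in chronic cells. Without chronic replicate 1 or 2 the chronic count of higher genes was 2, and without chronic replicate 1 the count of lower genes was 0, as Id3 was not called.

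Of 12 factors known from Th9 cells, 3 were higher and 0 lower in acute cells (median -0.10), and 3 higher and 1 lower in chronic cells (0.0025). They were Il21, Batf and Etv5, the last an ETS factor that rose by 1.14 and 0.80. Spi1, which encodes PU.1, read between 5.16 and 5.51 and stayed below background on all 9 arrays, while Il9 was far above it in the Th2 groups. A level below background does not show that PU.1 was absent, and its part in Il9 was not tested. Smad3, a transducer of TGF-β, fell by 1.04 in chronic cells (adjusted p = 0.022) and stood at -0.88 in acute cells (0.0507). Without naive replicate 1, 3 genes were lower in each comparison, and without naive replicate 2 or chronic replicate 1 or 2 none was lower in chronic cells, as Smad3 was not called there. The call of Smad3 was also lost without naive replicate 3 (adjusted p up to 0.097 over these fits).

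Other cells can make these cytokines, so their markers were read on the same arrays. Of 15 measured mast cell and basophil genes, 1 to 3 were above background on any array. The summed level of a list is the log2 of the sum of its genes' intensities. It was 9.36 to 9.48 in naive, 10.19 to 10.49 in acute and 9.59 to 9.70 in chronic cells. Such a sum follows the brightest genes of a list, here Hdc on the Th2 arrays (mean 9.33 in acute and 7.54 in chronic cells). The defining markers Mcpt8, Prss34, Cpa3, Fcer1a and Ms4a2 were below background on all 9 arrays. Gata2 was above background on 8 arrays and Kit on 4. Hdc, the enzyme that makes histamine, was above it on all 9 and rose by 2.75 in acute cells (limma adjusted p = 2.59e-05) and by 0.95 in chronic cells (0.0107), and differed by -1.80 between chronic and acute cells (0.0235), a stage call lost (adjusted p up to 0.201) without naive replicate 3, any 1 acute array, or chronic replicate 1 or 2, and with the replicate number as a block (0.142). Gata2 stood 0.37 higher in chronic cells, a call lost without naive replicate 2 or 3 or chronic replicate 1 or 2.

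Of 7 measured eosinophil genes, 1 or 2 were above background on any array, with summed levels of 8.65 to 8.81 in naive, 8.77 to 8.97 in acute and 8.96 to 9.08 in chronic cells. Siglecf was above background on all 9 arrays, with means of 6.96, 7.0 and 7.10 in naive, acute and chronic cells. Prg2 and Epx were below background on all arrays, and Ccr3 rose by 0.91 and 1.08. Ccr3 was above background on 2 acute arrays, 1 chronic array and no naive array. Of 9 measured genes used to mark group 2 innate lymphoid cells, 6 were higher and 0 lower in each comparison, with summed levels of 11.62 to 12.47 in naive, 13.32 to 13.49 in acute and 13.48 to 13.60 in chronic cells. They were Gata3, Rora, Il17rb, Klrg1 (2.94 and 2.72), Ptpn13 (2.77 and 2.63) and Id2 (1.96 and 2.28). At least Gata3, Rora and Il17rb are also expressed by Th2 cells. Il17rb, Klrg1 and Ptpn13 rose from naive levels below background. Arg1 (1.36 and 0.73), Il7r (-0.050 and 0.41) and Nmur1 (-0.11 and 0.065) passed in neither comparison. The part of group 2 innate lymphoid cells in the levels of the cytokine genes was not tested. Genes of NK and invariant NKT cells (8 measured), CD8 T cells (2), macrophages and dendritic cells (15) and lung epithelium, endothelium and stroma (11) had 0 called by limma in any comparison, with 0 to 3 per list at an unadjusted p under 0.05. Of the 11 lung genes, 4 to 5 were above background on the naive arrays, 4 to 6 on the acute and 2 to 4 on the chronic arrays. Of the 15 macrophage and dendritic cell genes, 1 or 2 were above it on any array. A lack of calls does not show that such cells were absent. Of 7 B cell genes, Cd79a was called in chronic against naive cells, by -0.61, and the call held in 1 of the 9 fits that left out 1 array. Cd79a was below background on all 9 arrays.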

How the data were processed

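The authors deposited 1 log2 intensity per probe set and array for 9 arrays, normalised with RMA, per the submitters' processing notes, which also name limma. Versions are not given in the sources used, nor are chip definition and genome build. RMA evens out the distributions of arrays, so a change shared by most genes is not seen. Deposited values were used as they are. Of 34760 probe sets, 21640 name 1 gene; a gene was represented by its brightest probe set, which gave 19937 genes. Groups came from the sample titles and tissue labels. limma 3.58.1 in R 4.3.3 was fitted to all 9 arrays with group as the only term (lmFit, contrasts.fit, eBayes, two-sided), and p was adjusted by Benjamini and Hochberg over all 19937 genes, with calls at an adjusted p under 0.05. The fit was tested on simulated data. P-values measure the spread between arrays, which may be partly technical. Named genes were the 4 cytokine genes, up to 4 called genes of each list with the largest differences (or up to 2 as values), all receptors, the 5 most alike profiles and the sort markers; Notch1, Rbpj and other genes of the activator list appear in a plot, and further genes were named after their values were seen. The 20 lists held 238 genes, of which 218 were measured. The genes and lists were chosen with earlier results of these data known. Promoters were read from a RefSeq table. Precision is limited by the number of arrays. Alternatives covered scaling, array weights, probe set choice, dim genes, a replicate block and leaving out each array.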

Additional observations from a re-analysis of the deposited data

How the results depend on the processing

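The differences of Il4, Il5, Il13 and Il9 from naive cells kept their direction and stayed past the threshold in all 18 alternatives, between 5.30 (Il4) and 7.57 (Il5) in acute and between 5.48 (Il4) and 7.35 (Il5) in chronic Th2 cells, with an adjusted p of at most 0.000173. Some alternatives could change only the p of the differences of these 4 genes, not their size. They were averaging probe sets, the replicate block, the variance trend, leaving out dim genes and fitting only the arrays compared. All count in the totals below. Between the stages the alternatives changed more. With array weights (0.165 on naive replicate 1 to 8.23 on acute replicate 3), Il4 (0.50), Il5 (-0.27) and Il13 (-0.30) passed. Centring on olfactory receptor genes moved the median of all genes by -0.061, -0.37 and -0.33 in the 3 comparisons, turned Il4 (-0.054) and Il9 (-0.30) and put Il5 at -0.60 and Il13 at -0.61. Il9 also turned when centred on the median of all probe sets (-0.0054), and ranged from -0.042 to 0.18 when 1 array was left out. Counts of called genes depended on the setting far more than the cytokine genes did. Array weights called 4019 genes (acute minus naive), 4675 (chronic minus naive) and 6721 (chronic minus acute), against 1171, 1571 and 6. Fitting only the 6 arrays compared called 762, 686 and 2, and centring on olfactory receptor genes 643, 3599 and 44. A variance trend with robust fitting called 3 between the stages. Leaving out 1 array gave 653 to 2424, 734 to 3438 and 0 to 12 genes, with the highest count in each comparison without naive replicate 1. The list counts without naive replicate 1 thus stand beside 2424 (acute minus naive) and 3438 (chronic minus naive) called genes. With the replicate block 0 genes were called between the stages, Il4, Il5, Il13 and Il9 kept all their calls, and Il5 differed by -0.22 (adjusted p = 0.291). Deviations from the group means correlated between same-numbered arrays at -0.085 to 0.57, over 0.1 in 6 of 9 pairs, and between differently numbered arrays at -0.56 to 0.44, over 0.1 in 2 of 18. The numbers were not taken to pair the arrays, since pairing was to be read from a correlation over 0.1 in every same-numbered pair. Of 216 values of the 4 genes over all alternatives, 209 kept direction and side of the threshold, as did 390 of 432 counts of list genes within 1.5 times and 33 of 36 within-array differences. Leaving out dim genes (10749 tested) and quantile normalisation changed no call of the 4 genes.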
